A study of Mus musculus with 32 samples.

Results

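The matrix metalloproteases (MMPs) described here are 10 genes of 41388 in the deposited tables: Mmp2, Mmp3, Mmp8, Mmp9, Mmp10, Mmp11, Mmp12, Mmp13, Mmp14 and Mmp19. They were chosen by name, through their Ensembl identifiers, and followed across 32 RNA-seq libraries of primary mouse chondrocytes. The cells had been isolated from femoral heads at postnatal day 21 and collected unpassaged after 4 days of culture in medium with serum. LG/J females, LG/J males, SM/J females and SM/J males each gave 8 libraries, so that the inbred strains LG/J and SM/J had 16 each; no added allele or treatment is labelled for either. LG/J mice are known to heal wounds of the ear and of cartilage well, and SM/J mice to heal them poorly. Nothing in the labels says whether the libraries of a group came from separate animals or cultures, so that p-values reflect the spread among libraries and this spread may be technical.

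MMPs are zinc-dependent endopeptidases that are made as inactive proenzymes and that cut the proteins of the extracellular matrix. In cartilage, collagenases open the collagen triple helix, stromelysins cut proteoglycans and activate other proenzymes, and gelatinases digest the denatured collagen that is left. Membrane-bound MMPs act at the cell surface, and tissue inhibitors of metalloproteases (TIMPs) block the active enzymes. Collagenase expression by hypertrophic chondrocytes belongs to the normal replacement of cartilage by bone, and high levels of collagenases and stromelysins are a known feature of arthritic joints.

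Total counts ran from 15840330 to 25571598 per library. LG/J female 1 and LG/J male 1 are given apart from the other 14 LG/J libraries throughout, because their values differed from those of their groups. Their 12 summed chondrocyte markers (Col2a1, Acan, Sox9 and others) were at 1613 and 2641 CPM (TMM-scaled CPM, read counts relative to library size, used below unless stated). They summed to 14980 to 39920 CPM in the remaining LG/J libraries and 9061 to 28150 CPM in SM/J. Within groups, 9 of 112 pairs of libraries were close pairs. Their median squared difference over genes was less than 5 times that of sampling noise alone, with a lowest value of 3.59 times. In 6 libraries, transcripts specific to the other sex than the labelled one exceeded 10 CPM without TMM scaling. For members called between the strains, fits that sum or leave out such libraries are given beside the main fit, singly or as a range. Strain differences of other named genes are given with all libraries, some also without LG/J female 1 and male 1, and in no other fit.

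Several of these genes are neighbours in a single cluster. Mmp13, Mmp12, Mmp3, Mmp10 and Mmp8, 5 of the 10 genes, lie within 296.0 kb of chromosome 9 (7272514 to 7568486 on GRCm38), in a cluster of 10 MMP genes that spans 427.1 kb. Mmp2 (ENSMUSG00000031740) lies on chromosome 8 at 92827328 to 92853417, Mmp9 (ENSMUSG00000017737) on chromosome 2 at 164940780 to 164955850 and Mmp14 (ENSMUSG00000000957) on chromosome 14 at 54431604 to 54441258. Mmp11 (ENSMUSG00000000901) is at 75923222 to 75932502 and Mmp19 (ENSMUSG00000025355) at 128790953 to 128800824 of chromosome 10. All 10 are annotated as protein-coding genes.

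The family was dominated by the collagenase Mmp13 and the stromelysin Mmp3. Levels between genes were compared per length, as CPM per kilobase. Mmp13 had a median of 867.9 CPM per kilobase in the other LG/J libraries and 1106 in SM/J. Mmp3, the next in order, had medians of 147.8 and 204.9 CPM per kilobase in the same groups, and the gelatinase Mmp2 had 25.09 and 27.69. Mmp13 and Mmp3 overlapped in range, with Mmp13 the higher of the pair in 12 of the 14 other LG/J and 12 of the 16 SM/J libraries. Mmp3 exceeded Mmp2 in 10 of 14 other LG/J libraries and in all 16 SM/J libraries.

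Below them came the membrane-bound MMP gene Mmp14, at medians of 4.90 CPM per kilobase in the other LG/J libraries and 7.90 in SM/J, and the stromelysin-like Mmp11 at 2.56 and 3.88. Mmp14 was above Mmp11 within each of the 14 and 16 libraries. Mmp19, Mmp8 and Mmp10 followed with medians of 0.469 to 1.11 CPM per kilobase in the other LG/J libraries and 0.586 to 1.56 in SM/J, with ranges that overlapped. The macrophage elastase Mmp12 held different places: the ninth of 10 in the other LG/J libraries, at a median of 0.309 CPM per kilobase, and the fourth in SM/J, at 8.29. There its range overlapped that of Mmp14, above which it stood in 8 of 16 libraries. The gelatinase Mmp9 was last in both, with medians of 0.0197 and 0.0424 CPM per kilobase. It had at least 1 read in 25 of 32 libraries and at most 71 reads.

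**Figure D1:**
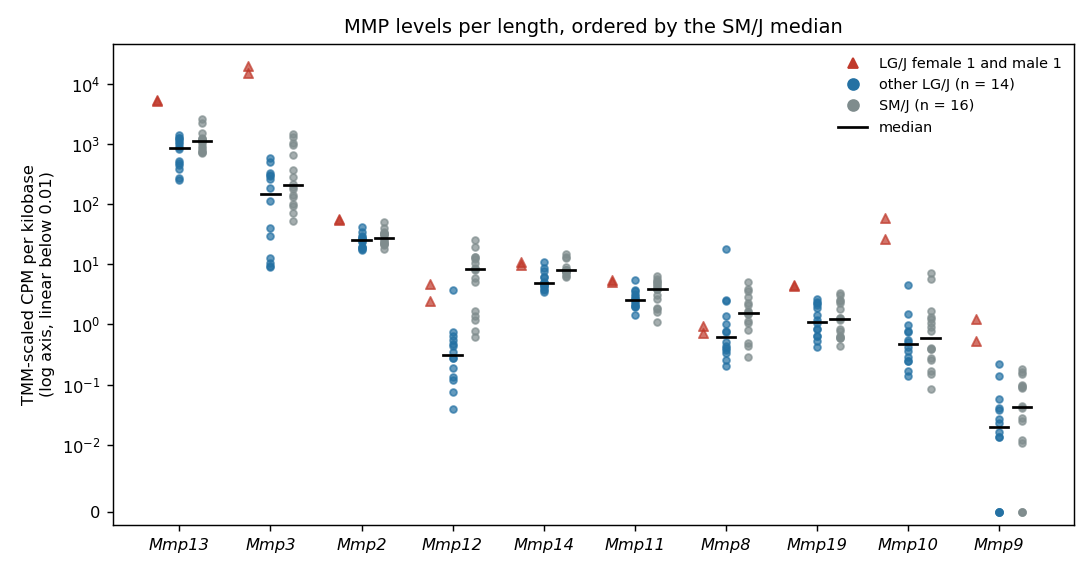
Levels of the 10 MMP genes in TMM-scaled CPM per kilobase (log axis, linear below 0.01), ordered by the SM/J median. Each point is a library (triangles, LG/J female 1 and male 1; blue, the other 14 LG/J; grey, the 16 SM/J), and black lines are medians; Mmp13 and Mmp3 lie highest, and Mmp12 has a median of 0.309 in the other LG/J libraries against 8.29 in SM/J.

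LG/J female 1 and LG/J male 1 carried far more stromelysin and collagenase transcript than the other LG/J libraries. These libraries were picked from their values, so the differences are a description without a test. Mmp3 was at 35070 and 27410 CPM in LG/J female 1 and LG/J male 1, against 16.17 to 1038 CPM with a median of 265.8 CPM in the other 14. That is 132.0 and 103.1 times the median, and Mmp3 alone took 2.215 to 2.842% of all counts in these libraries, against at most 0.1034% in the other LG/J ones. Mmp10, the other stromelysin, was at 100.4 and 45.7 CPM, against 0.239 to 7.83 CPM. Mmp13 was at 14180 and 13850 CPM, against 662.1 to 3761 CPM.

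In all, 6 of the 10 members were above the range of the other LG/J libraries in both of them: Mmp2, Mmp3, Mmp9, Mmp10, Mmp13 and Mmp19. Mmp9 was at 4.38 and 1.89 CPM in LG/J female 1 and LG/J male 1 and at most 0.762 CPM in the other LG/J libraries. Mmp2 was at 163.4 and 174.0 CPM against 51.61 to 124.9 CPM. Mmp19 was at 14.86 and 15.53 CPM against 1.42 to 9.13 CPM. Mmp8 and Mmp11 stayed within the range of the others in both, and Mmp12 and Mmp14 were above it in LG/J female 1 and within it in LG/J male 1. No member was below that range in both. The same count was not made over all genes, so these counts describe the members only.

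The make-up of the family changed with this. Mmp3 made up 74.26 to 78.2% of the summed per-kilobase level of the 10 genes in LG/J female 1 and male 1, with Mmp13 at 21.25 to 25.22%. In the other LG/J libraries the medians were 13.06% for Mmp3 and 81.95% for Mmp13, and in SM/J they were 12.25% and 84.25%. Single libraries of both strains still reached a high Mmp3 share, up to 54.17% in the other LG/J and 61.81% in SM/J.

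Lists of inducers and partners of MMPs held genes above and genes below the range of the other LG/J libraries in LG/J female 1 and male 1. Genes outside these lists did so too, and all 12 chondrocyte markers were below it in both. Of 12 genes of cytokines and receptors that induce MMPs, 8 were above the range of the other LG/J libraries in both and none below it. Of 17 transcription factor genes, 9 were above and 2 (Jund and Nfkb1) below. Of 11 genes for activation and uptake, 3 were above and 2 (Pcsk6 and Bsg) below, and of 10 inhibitor genes 2 were above and 4 below. The remaining genes of these lists were not outside that range on the same side in both libraries. The share of all genes outside it was not counted, so these counts describe the lists only. Among the genes above it, Il1a, Osm, Csf2 and the inhibitor gene Spock1 did not pass the filter on low counts. In LG/J female 1 and LG/J male 1, Il1a was at 1.54 and 1.14 CPM and Osm at 0.555 and 0.821 CPM. Csf2 was at 1.85 and 0.947 CPM and Spock1 at 0.617 and 0.758 CPM. The gene of the inflammatory cytokine Il6 stood at 63.87 and 39.77 CPM in LG/J female 1 and LG/J male 1 and at most 0.961 CPM in the other LG/J libraries. The AP-1 subunit gene Fosl1 was at 63.31 and 58.89 CPM against at most 20.35 CPM. Nfkbiz, a nuclear regulator of inflammatory genes, was at 103.6 and 89.0 CPM against at most 9.23 CPM. Timp1, which encodes a secreted MMP inhibitor, was at 3308 and 3345 CPM against at most 2338 CPM, whereas Timp3, the inhibitor that binds to matrix, was at 293.1 and 796.5 CPM against 7604 to 20190 CPM. Macrophage markers summed to 573.4 and 468.0 CPM, mostly Cd14, Cd68 and Laptm5, and the defining marker Adgre1 was at 0.247 and 0.379 CPM. Neutrophil markers summed to 119.2 and 50.31 CPM, mostly S100a8 and Camp, against at most 3.43 CPM in the other LG/J libraries, with the defining marker Ly6g at 0.123 and 0.126 CPM. The part of these markers in the MMP levels was not tested.

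**Figure D2:**
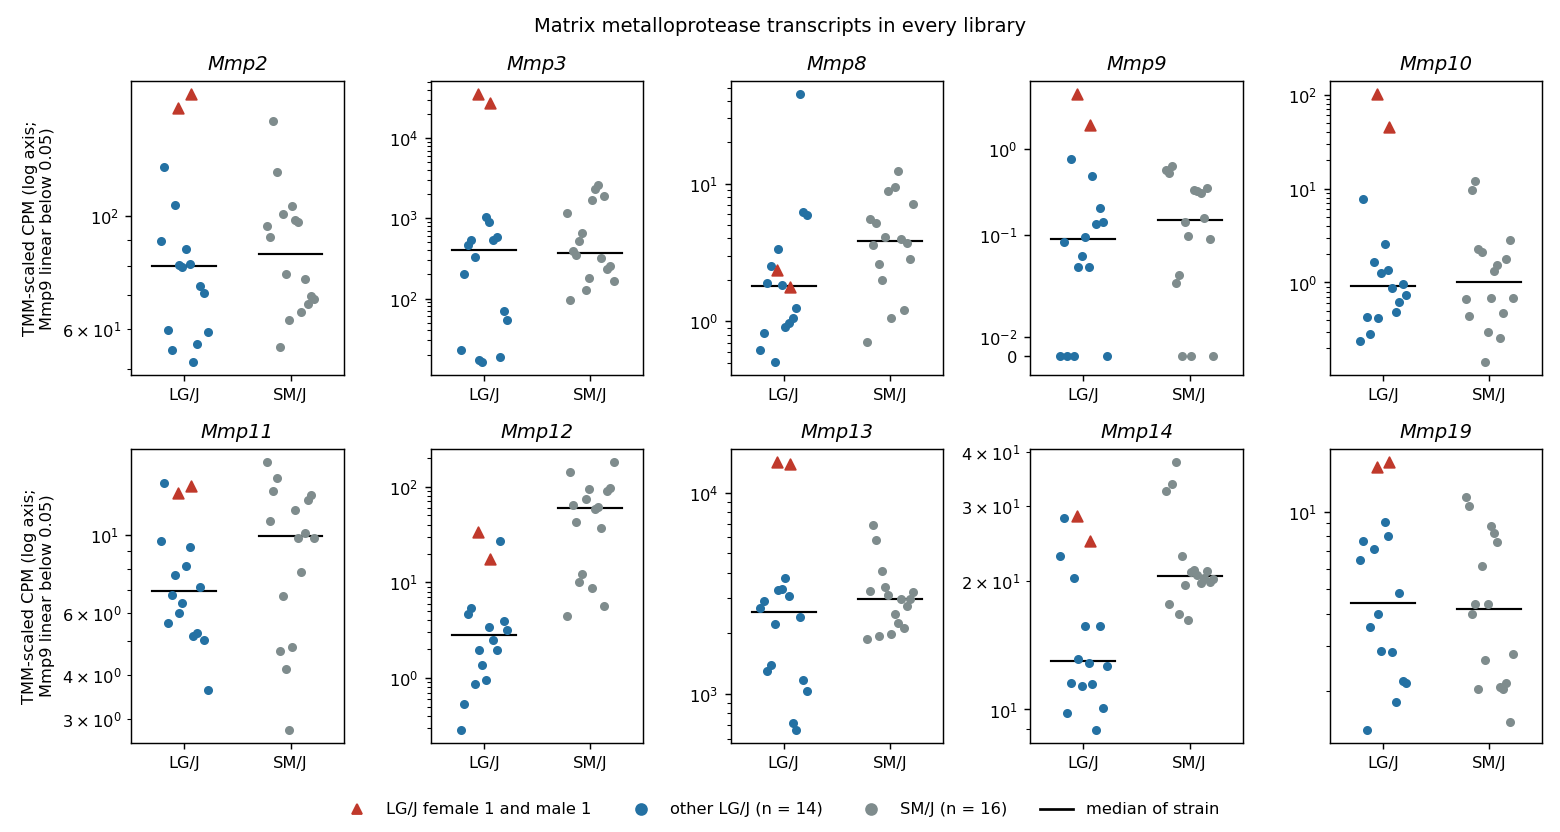
TMM-scaled CPM of each MMP gene in every library (log axes; Mmp9 linear below 0.05), LG/J left and SM/J right. Triangles are LG/J female 1 and male 1, points the other libraries and black lines the median of each strain; Mmp3 and Mmp13 reach 35070 and 14180 CPM in the triangles, and 11 of 16 LG/J libraries lie below the SM/J range for Mmp12 and for Mmp14.

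The sequence next to the start of 3 of these genes shares a feature. Promoters, taken as 250 bases before to 50 after the annotated start, were matched in the RefSeq table used here for 7 of the 10 members (Mmp3, Mmp8, Mmp10, Mmp11, Mmp12, Mmp13 and Mmp14), and those of Mmp2, Mmp9 and Mmp19 were not used. AP-1 is a dimer of Fos and Jun proteins known to drive stromelysin and collagenase genes in response to growth factors and cytokines. Its letters TGANTCA, searched on both strands, were found once each in the promoters of Mmp3, Mmp10 and Mmp13. The 120 bases before and 30 after the start are printed for these 3 genes and for Mmp12, a neighbour without the letters (GRCm38.p6, forward strand, with AP-1 matches and the TATAAA near the start in capitals).
Mmp3, chr9:7445702-7445851: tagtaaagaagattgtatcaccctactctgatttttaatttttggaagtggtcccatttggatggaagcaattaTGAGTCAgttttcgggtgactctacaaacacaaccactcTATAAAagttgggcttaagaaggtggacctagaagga
Mmp10, chr9:7502222-7502371: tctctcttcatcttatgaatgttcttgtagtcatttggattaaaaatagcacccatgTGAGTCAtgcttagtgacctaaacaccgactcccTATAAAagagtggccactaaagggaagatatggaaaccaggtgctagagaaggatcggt
Mmp13, chr9:7272394-7272543: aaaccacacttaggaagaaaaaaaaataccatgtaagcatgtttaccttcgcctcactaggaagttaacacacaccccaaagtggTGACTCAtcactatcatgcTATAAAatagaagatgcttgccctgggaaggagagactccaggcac
Mmp12, chr9:7344277-7344426: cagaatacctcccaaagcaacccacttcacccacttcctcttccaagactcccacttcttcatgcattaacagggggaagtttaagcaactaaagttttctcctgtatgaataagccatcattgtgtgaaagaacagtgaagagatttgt

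The AP-1 letters began 46 bases before the start in Mmp3, 63 before it in Mmp10 and 35 before it in Mmp13. They were in 3 of 7 member promoters and in 7.81% of all 32851 promoters of this length. The 3 genes are neighbours in the same cluster, so these shares are a description. The letters ACCACA, bound by RUNX factors, were in 2 of 7 (Mmp13 and Mmp14) and in 16.8% of all. AGGAAG, bound by Ets factors of the PEA3 group, was in 5 of 7 against 35.4%, and TATAAA in 4 of 7 against 13.6%. In Mmp8 the last of these was on the reverse strand. No match in a member overlapped another. A match describes letters in this window and no binding was measured. Whether the letters bear on the levels of these genes in any library was not tested.

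Over both sexes, 4 of the 9 members that could be tested differed between LG/J and SM/J at an adjusted p under 0.05 (edgeR's quasi-likelihood test with Benjamini-Hochberg adjustment over all 16136 genes kept). Mmp9 was the member removed by the filter on low counts, and with no filter its log2 fold change was 1.05 with an adjusted p of 0.417. Of all genes tested, 29.9% were called, 16.4% higher and 13.5% lower in LG/J. Among the members, Mmp3 and Mmp10 were higher and Mmp12 and Mmp14 lower. The median log2 fold change of the 9 members was 0.00 against 0.02 over all genes.

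Without LG/J female 1 and male 1, 2 of 9 members were called, both lower in LG/J, where 32.2% of 16229 genes were called, 17.1% higher and 15.1% lower. These were Mmp12 and Mmp14. The median of the 9 members was then -0.56, against -0.0049 over all genes. For every member the ranges of the 2 strains overlapped, with these libraries and without them.

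**Figure D3:**
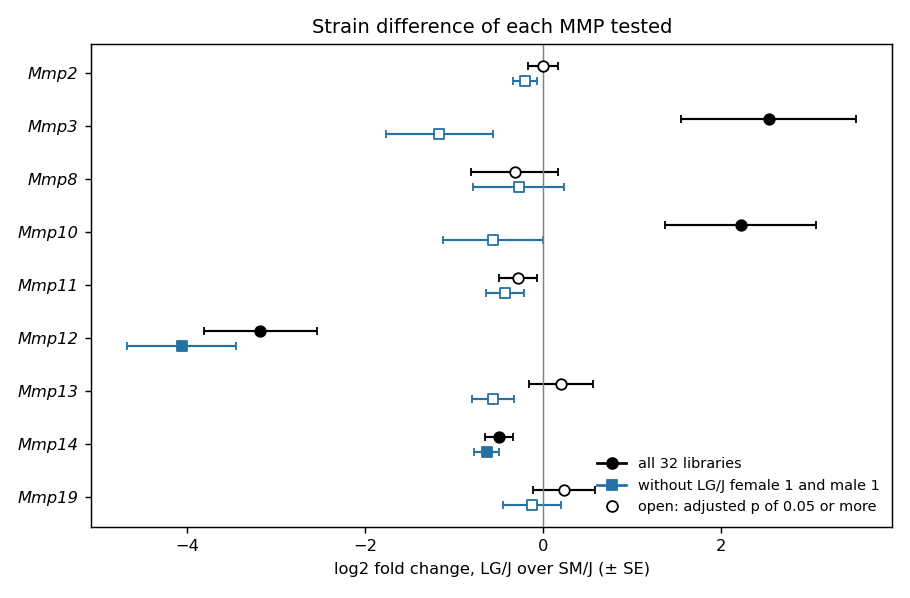
Log2 fold change of LG/J over SM/J (± SE, edgeR) for the 9 MMP genes tested, with all 32 libraries (black) and without LG/J female 1 and male 1 (blue); filled symbols have an adjusted p under 0.05. Mmp12 and Mmp14 lie left of 0 and are filled in both fits, while Mmp3 and Mmp10 move to the left of 0 without the 2 libraries.

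Among the stromelysins, Mmp3 (ENSMUSG00000043613, chromosome 9, 7445822 to 7455972), which cuts aggrecan and link protein and activates procollagenases, was 5.82-fold higher in LG/J (log2 fold change 2.54 ± 0.98 SE, edgeR adjusted p = 0.0498). Its levels were 16.17 to 35070 CPM with a median of 398.9 CPM in LG/J, against 94.84 to 2625 CPM with a median of 368.4 CPM in SM/J. Only LG/J female 1 and male 1 lay above the SM/J range, 6 LG/J libraries lay below it and 8 within it. Without these libraries the difference was -1.16 ± 0.60 (adjusted p = 0.148).

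The remaining LG/J libraries also lay far from each other for Mmp3. Females 2, 7 and 8 and males 6, 7 and 8 were at 16.17 to 70.63 CPM, and the other 8 at 201.0 to 1038 CPM. SM/J libraries spread 27.68-fold from lowest to highest and the other LG/J libraries 64.22-fold. The Mmp3 call was kept in 10 of 32 fits with a single library left out, namely LG/J female 2, 3, 4, 6, 7 or 8, LG/J male 6, 7 or 8, or SM/J female 1. In the other 22 it was lost, with a difference of 0.37 without LG/J female 1 (adjusted p = 0.762) and 1.01 without LG/J male 1 (adjusted p = 0.397). With the 6 libraries that held transcripts of the other sex left out it was 3.001 (adjusted p = 0.081). Leave-one-out adjusted p ranged from 0.0386, and over 13 other alternatives from 0.0438 to 0.349.

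Mmp10 (ENSMUSG00000047562, chromosome 9, 7502352 to 7510238), which shares its substrates with Mmp3 to a large extent, was 4.67-fold higher in LG/J (2.22 ± 0.85, edgeR adjusted p = 0.0479). It was at 0.239 to 100.4 CPM with a median of 0.918 CPM in LG/J, against 0.142 to 12.12 CPM with a median of 1.01 CPM in SM/J. Here too LG/J female 1 and male 1 were the sole libraries above the SM/J range, and the other 14 were within it. Without them the difference was -0.56 ± 0.56 (adjusted p = 0.486).

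The Mmp10 call was kept in 16 of the 32 fits without 1 library. It was lost without LG/J female 1 (0.73, adjusted p = 0.482), LG/J male 1 (0.93, adjusted p = 0.385) or LG/J female 3 (2.26, adjusted p = 0.0502), and without any of SM/J female 1, 2, 5, 6, 7 or 8 or SM/J male 1, 2, 3, 4, 5, 6 or 8 (2.12 to 2.27, adjusted p = 0.0579 to 0.0682). Without the 6 libraries that held transcripts of the other sex it was larger (3.35, adjusted p = 0.014). Over 13 other alternatives the adjusted p was 0.014 to 0.952. DESeq2, which replaces counts far from their group, replaced those of LG/J female 1 and male 1 for both stromelysins, and that of SM/J female 4 for Mmp10, and gave differences of -1.08 for Mmp3 (adjusted p = 0.103) and -0.23 for Mmp10 (adjusted p = 0.756). The transcripts of the 2 genes share sequence: 8.39% of the 50-base windows of Mmp3 occur in another gene, mainly Mmp10, and 8.37% of those of Mmp10 occur in Mmp3. How reads with several matches were counted is not given in the sources used here. Mmp10 stood at 0.167 to 0.286% of the Mmp3 CPM in LG/J female 1 and male 1, at 0.0539 to 7.80% in the other LG/J libraries and at 0.0252 to 3.505% in SM/J.

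Mmp12 (ENSMUSG00000049723, chromosome 9, 7344381 to 7369499), the elastase known mainly from macrophages, had the lowest adjusted p of the 9 members tested. It was 9.07-fold lower in LG/J (-3.18 ± 0.64, edgeR adjusted p = 0.000253). In LG/J it was at 33.66 and 17.61 CPM in female 1 and male 1 and at 0.287 to 26.93 CPM with a median of 2.24 CPM in the other 14. In SM/J it was at 4.404 to 179.4 CPM with a median of 59.99 CPM. Of the 16 LG/J libraries, 11 lay below the lowest SM/J library and all 16 below the SM/J median. Without LG/J female 1 and male 1 the difference was 16.7-fold (-4.06 ± 0.61, adjusted p = 5.95e-06).

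The Mmp12 difference was called in each sex with all libraries. In females it was -3.21 ± 0.90 (adjusted p = 0.0146) and in males -3.15 ± 0.90 (adjusted p = 0.0106). With close pairs summed neither passed (-2.90 in females, adjusted p = 0.124, and -2.43 in males, adjusted p = 0.154), and without the 6 libraries holding transcripts of the other sex the female one did not (-3.18, adjusted p = 0.0901). Over both sexes it passed in every fit that left out 1 library (-3.92 to -2.98, adjusted p = 6.51e-06 to 0.000567) and under all 13 other alternatives (-4.67 to -2.67, adjusted p = 3.05e-07 to 0.0164). Of the 50-base windows of Mmp12, 3.003% occur in other genes. The overlapping opposite-strand gene Mmp1b averaged 0.0137 CPM without TMM scaling.

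Macrophage markers moved with Mmp12 within groups. Of 16 markers, 13 passed the filter, and 2 of them, Fcgr1 and Tyrobp, were lower in LG/J, where 13.5% of all genes were lower, with a median log2 fold change of -1.18 over the 13 against 0.02 over all genes. Without LG/J female 1 and male 1, Fcgr1 and Cd14 were called lower, against 15.1% of all genes. The 16 markers summed to 573.4 and 468.0 CPM in LG/J female 1 and male 1, to 40.76 to 1148 CPM with a median of 85.21 CPM in the other LG/J libraries, and to 70.51 to 1192 CPM with a median of 181.7 CPM in SM/J. Over 30 libraries with the group means removed (LG/J female 1 and male 1 left out), Pearson's r between Mmp12 and a marker was 0.303 (Cd14) to 0.804 (Tyrobp), and 0.731 for Adgre1. The 30 libraries share the groups' processing, and some are close pairs.

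Set against that sum, Mmp12 stood at 5.87 and 3.76% in LG/J female 1 and male 1, at 0.704 to 5.37% with a median of 2.25% in the other LG/J libraries, and at 3.61 to 45.49% with a median of 30.12% in SM/J. Laptm5 and Cd68 had medians of 34.68 and 32.04 CPM in the other LG/J libraries, and Adgre1 and Csf1r 1.64 and 2.44 CPM. In SM/J the same medians were 34.76, 50.86, 11.46 and 12.79 CPM. The percentages therefore depend on which markers are summed. LG/J male 6 and SM/J female 2 had the highest marker sums of their strains, 1148 and 1192 CPM, with Mmp12 at 26.93 CPM in LG/J male 6 and 141.3 CPM in SM/J female 2. The part of macrophages in the Mmp12 difference was not tested. In bulk RNA, fewer cells of a type and less RNA per cell cannot be told apart.

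**Figure D4:**
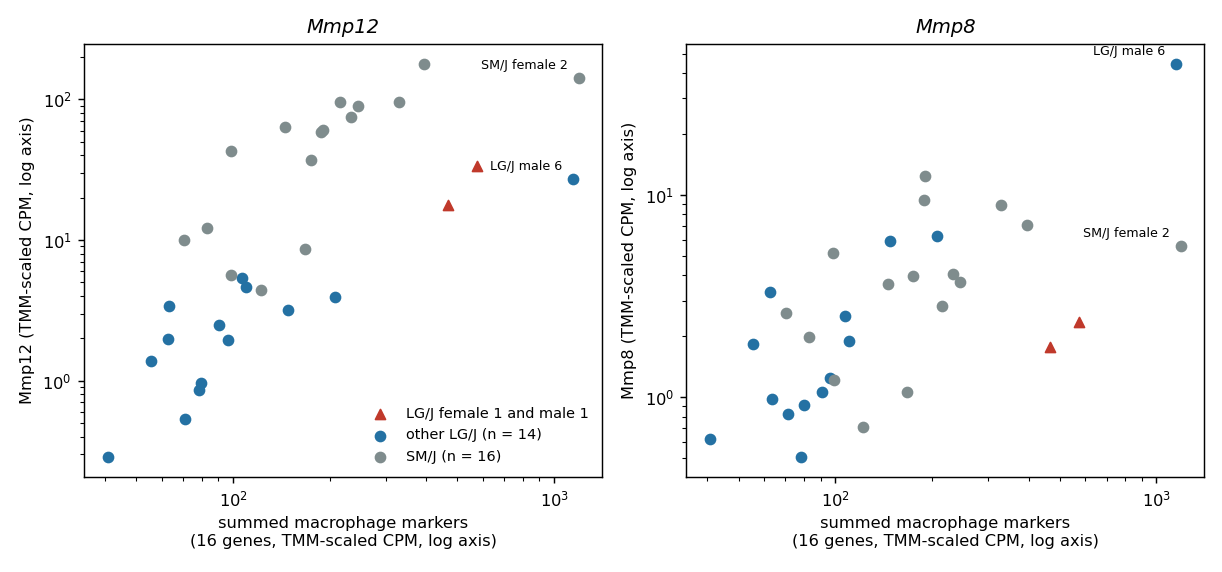
Mmp12 (left) and Mmp8 (right) against the summed CPM of 16 macrophage markers in each of the 32 libraries, on log axes; triangles are LG/J female 1 and male 1, blue points the other LG/J and grey points the SM/J libraries. At a marker sum of 1148 and 1192 CPM, Mmp12 is at 26.93 CPM in LG/J male 6 and 141.3 CPM in SM/J female 2, and Mmp8 is at 44.59 and 5.56 CPM.

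Mmp14 encodes a membrane-anchored collagenase that activates the Mmp2 proenzyme at the cell surface, and it was 1.41-fold lower in LG/J (-0.50 ± 0.16, edgeR adjusted p = 0.0166). It was at 28.36 and 24.74 CPM in LG/J female 1 and male 1 and at 8.96 to 28.1 CPM with a median of 12.74 CPM in the other LG/J libraries, against 16.17 to 37.86 CPM with a median of 20.51 CPM in SM/J. Of 16 LG/J libraries, 11 were below the SM/J range, and the other 5 within it. SM/J males were close to each other, at 19.79 to 21.16 CPM, whereas SM/J females ran from 16.17 to 37.86 CPM.

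Without LG/J female 1 and male 1 the Mmp14 difference was -0.63 ± 0.15 (adjusted p = 0.00104), and the call was kept in all 32 fits without 1 library (adjusted p = 0.00344 to 0.0313). It was lost with the close pairs summed, which left 24 libraries (-0.38, adjusted p = 0.144), and without the 6 libraries that held transcripts of the other sex (-0.29, adjusted p = 0.193). With LG/J female 1 and male 1 also left out, it passed in both settings (-0.52, edgeR adjusted p = 0.0235, and -0.41, adjusted p = 0.0288). Over the 13 alternatives the adjusted p was 9.68e-05 to 0.193. Within a sex it did not pass in edgeR, at -0.44 in females (adjusted p = 0.222) and -0.55 in males (adjusted p = 0.0751). DESeq2 called it in males (-0.56, adjusted p = 0.0481) and not in females (adjusted p = 0.188), and voom in males (-0.74, adjusted p = 0.00152) and in females (-0.58, adjusted p = 0.025). In males it passed without LG/J male 1 (-0.72, adjusted p = 0.0158) and without both libraries numbered 1 (-0.72, adjusted p = 0.0102).

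The gelatinase genes gave no strain call. Mmp2 was at 163.4 and 174.0 CPM in LG/J female 1 and male 1, at 51.61 to 124.9 CPM in the other LG/J libraries and at 55.14 to 154.4 CPM in SM/J. Its log2 fold change was 0.00 (0.0032 ± 0.17, adjusted p = 0.991), with a 95% interval of -0.32 to 0.33. From the lowest to the highest library it spread 2.42-fold in the other LG/J libraries and 2.80-fold in SM/J. Mmp9, the gelatinase of osteoclasts and neutrophils, was at 4.38 and 1.89 CPM in LG/J female 1 and male 1, at 0 to 0.762 CPM in the other LG/J libraries and at 0 to 0.639 CPM in SM/J.

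Neither of the secreted collagenases was called between the strains with all libraries. Mmp13 (ENSMUSG00000050578, chromosome 9, 7272514 to 7283333), the main collagenase of mouse cartilage and a product of hypertrophic chondrocytes, was at 14180 and 13850 CPM in LG/J female 1 and male 1, at 662.1 to 3761 CPM with a median of 2322 CPM in the other LG/J libraries and at 1868 to 6888 CPM with a median of 2958 CPM in SM/J. With all libraries the difference was 0.20 ± 0.36 (edgeR adjusted p = 0.723), with a 95% interval of -0.51 to 0.91. It was -0.56 ± 0.24 without LG/J female 1 and male 1 (adjusted p = 0.0669), in a range of 0.0585 to 0.905 over the 13 alternatives. The 6 LG/J libraries below the SM/J range were females 4 and 5 and males 4, 5, 7 and 8, at 662.1 to 1393 CPM. Females 4 and 5 and males 4 and 5 are each a close pair. The 6 hypertrophic markers (Col10a1 and others) summed to 524.2 and 830.2 CPM in LG/J female 1 and male 1. They summed to 1027 to 5095 CPM in the other LG/J libraries and 1053 to 3280 CPM in SM/J. Of the 6, 1 was called higher in LG/J with all libraries and 4 without LG/J female 1 and male 1. Against these stand 16.4% and 17.1% of all genes. The part of hypertrophic cells in the Mmp13 level was not tested.

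Mmp8 (ENSMUSG00000005800, chromosome 9, 7558429 to 7568486), the collagenase known from neutrophils, was low in most libraries. It was at 2.34 and 1.77 CPM in LG/J female 1 and male 1 and at 0.505 to 6.27 CPM in 13 of the other LG/J libraries, with LG/J male 6 at 44.59 CPM. In SM/J it was at 0.710 to 12.33 CPM with a median of 3.83 CPM. The strain difference was -0.32 ± 0.49 (edgeR adjusted p = 0.679), and without LG/J male 6 it was -1.12 (adjusted p = 0.027) and called lower in LG/J. It was called in no other fit without 1 library, and over the 13 alternatives the adjusted p was 0.0393 to 0.981.

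LG/J male 6 also had the highest macrophage marker sum of the LG/J libraries, with Adgre1 at 104.5 CPM, while neutrophil markers summed to at most 3.43 CPM in it and the 13 other LG/J libraries beside female 1 and male 1. Their median sum there was 1.37 CPM, against 1.80 to 25.09 CPM with a median of 6.04 CPM in SM/J. With all libraries, 2 of 4 kept neutrophil markers were called lower in LG/J, where 13.5% of all genes were. Without LG/J female 1 and male 1, 4 of 5 were, against 15.1% of all genes. Mmp8 followed Mmp12 within groups, with Pearson's r of 0.783 over 30 libraries, the highest of the 36 pairs of members. The part of macrophages or neutrophils in the Mmp8 level was not tested.

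Mmp11 and Mmp19 were not called either. Mmp11, a secreted MMP that furin activates inside the cell, was at 13.19 and 13.82 CPM in LG/J female 1 and male 1, at 3.63 to 14.13 CPM with a median of 6.59 CPM in the other LG/J libraries and at 2.79 to 16.15 CPM with a median of 9.98 CPM in SM/J. All 16 LG/J libraries were within the SM/J range and 13 below its median. The difference was -0.28 ± 0.22 (edgeR adjusted p = 0.369), with a 95% interval of -0.71 to 0.15. Of its 50-base windows, 3.72% occur in Chchd10.

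Mmp19, a secreted MMP that also cuts components of basement membranes, was at 14.86 and 15.53 CPM in LG/J female 1 and male 1, at 1.42 to 9.13 CPM with a median of 3.78 CPM in the other LG/J libraries and at 1.52 to 11.37 CPM with a median of 4.19 CPM in SM/J. The difference was 0.24 ± 0.35 (edgeR adjusted p = 0.656), with a 95% interval of -0.45 to 0.92. Mmp19 overlaps Tmem198b on the opposite strand, which averaged 10.63 CPM without TMM scaling. Of the 50-base windows of Mmp19, 24.7% occur in Tmem198b or a second antisense gene, Gm47093. The strand setting of the counting is not given in the sources used here, so reads of Mmp19 and Tmem198b cannot be told apart there.

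The strain differences were also asked within each sex. In females 1 of 9 members was called, against 13.4% of all genes, and in males 1 of 9 against 22.3%. In both cases it was Mmp12. Mmp3 differed by 3.40 ± 1.44 in females (adjusted p = 0.127) and by 1.68 ± 1.35 in males (adjusted p = 0.417). Without LG/J female 1 and male 1, these values were -0.94 (adjusted p = 0.533) and -1.39 (adjusted p = 0.257).

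No member had a strain difference that itself differed between the sexes, and 0.0062% of all genes, a single gene, did. By edgeR none of the 9 had an unadjusted p under 0.05 for this. DESeq2 also called 0 with 0 unadjusted, and voom called 0 with 1 unadjusted, Mmp11. The largest estimate, male minus female strain difference, was for Mmp8, at 1.83 ± 0.99 (adjusted p = 0.673). For Mmp12 it was 0.06, with a 95% interval of -2.25 to 2.37.

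No member was called between males and females over both strains, where 3.46% of all genes were called. By edgeR 1 member had an unadjusted p under 0.05, Mmp8 (male minus female 1.27 ± 0.50, adjusted p = 0.157), which contains LG/J male 6. DESeq2 called 0 with 3 unadjusted and voom 0 with 0. Within LG/J 0.0496% of genes and 0 of 9 members were called (1 unadjusted by edgeR, Mmp8; 1 by DESeq2; 0 by voom), and within SM/J 5.76% of genes and 0 members (0 unadjusted by edgeR, 1 by DESeq2 and 1 by voom). Mmp14 was at 14.01 ± 4.95 CPM in males and 18.17 ± 7.70 CPM in females of LG/J, and at 20.52 ± 0.55 and 24.61 ± 8.68 CPM in those of SM/J (SD, n = 8 each), a difference of -0.32 ± 0.16 that did not pass (edgeR adjusted p = 0.269). Mmp10 was not called with all libraries (-1.31 ± 0.84, adjusted p = 0.414) or with LG/J female 1 and male 1 both left out (-1.09 ± 0.56, adjusted p = 0.248). It was called lower in males without LG/J male 1 alone, a fit that keeps LG/J female 1 (-2.60 ± 0.78, adjusted p = 0.0436). With LG/J female 1 and male 1 both left out, edgeR called 0 of 9 members over both strains, with 4 unadjusted. These were Mmp3 (1.24, adjusted p = 0.217), Mmp8 (1.39, adjusted p = 0.108), Mmp13 (-0.48, adjusted p = 0.22) and Mmp14 (-0.34, adjusted p = 0.157).

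Genes that act with the family were counted from lists of known roles, against 16.4% higher and 13.5% lower among all genes (17.1% and 15.1% without LG/J female 1 and male 1). Calls of list genes with close pairs summed, or without the libraries that held transcripts of the other sex, are not given. Of 13 other MMP genes, 5 passed the filter and 1 was called, Mmp28, at 1.05 and 0.442 CPM in LG/J female 1 and male 1, 0.245 to 1.43 CPM in the other LG/J libraries and 0.450 to 2.66 CPM in SM/J (-1.04 ± 0.19, edgeR adjusted p = 5.61e-05). Among 10 kept genes for activation and uptake of MMPs, 1 was lower and 9 were not called. It was Plau, the urokinase that makes the proenzyme activator plasmin, at 1.91 and 1.58 CPM in LG/J female 1 and male 1 and at 0.245 to 4.82 CPM in the other LG/J libraries, against 2.37 to 17.63 CPM in SM/J (-1.57 ± 0.30, adjusted p = 0.000157). Furin, which activates Mmp11 and Mmp14, differed by -0.15 ± 0.07 (adjusted p = 0.09). The median log2 fold change was -0.16 over the 5 other MMPs and -0.17 over the 10. Without LG/J female 1 and male 1, 4 of the 10 were lower and none higher, with a median of -0.41. These were Plau (edgeR adjusted p = 0.000359), Plaur (adjusted p = 0.0267), Ctsb (adjusted p = 0.0213) and Pcsk5 (adjusted p = 0.0484).

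Among 8 kept inhibitor genes, 3 were lower in LG/J, none higher and 5 not called, with a median of -0.36. Over all genes 13.5% were lower and 16.4% higher. Timp2, whose protein both inhibits MMPs and takes part in the activation of Mmp2 by Mmp14, was at 140.4 and 150.0 CPM in LG/J female 1 and male 1 and at 152.3 to 195.3 CPM in the other LG/J libraries, against 167.5 to 330.5 CPM in SM/J (-0.46 ± 0.07, edgeR adjusted p = 1.09e-05). Reck, a membrane-anchored inhibitor of several MMPs, was also lower (-0.66 ± 0.23, edgeR adjusted p = 0.0265), as was Spock2, a proteoglycan gene counted in this list (-1.81 ± 0.30, adjusted p = 1.29e-05). Spock2 levels were low, at 0.247 and 0.442 CPM in LG/J female 1 and male 1. They were 0 to 0.937 CPM in the other LG/J libraries and 0.681 to 3.26 CPM in SM/J. The 3 calls were kept without LG/J female 1 and male 1. Timp1 was -0.18 ± 0.31 (adjusted p = 0.715) and Timp3 -0.34 ± 0.31 (adjusted p = 0.447).

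Of 17 transcription factor genes that act on MMP promoters, all were kept, 4 were higher, 1 was lower and 12 were not called, with a median of 0.46. Over all genes 16.4% were higher and 13.5% lower. Runx2, the factor that drives Mmp13 in hypertrophic cartilage, was higher in LG/J (0.65 ± 0.12, edgeR adjusted p = 7.56e-05), as were Ets1 (0.55 ± 0.08, adjusted p = 3.67e-06), Elf3 (1.12 ± 0.30, adjusted p = 0.00482) and the AP-1 subunit Jun (0.46 ± 0.16, adjusted p = 0.0277). Another AP-1 subunit, Fosl2, was lower (-0.61 ± 0.18, adjusted p = 0.0108). Without LG/J female 1 and male 1, 5 were higher and 2 lower, against 17.1% and 15.1% of all genes, and Jun lost its call (0.27, adjusted p = 0.116).

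Among 7 kept genes of cytokines and receptors that induce MMPs, 1 was higher and 1 lower, against 16.4% and 13.5% of all genes, with a median of -0.14. Il6 was called higher (4.05 ± 1.01, edgeR adjusted p = 0.00251), and without LG/J female 1 and male 1 it was at -0.10 (adjusted p = 0.893). Tnfrsf1a, the main receptor for tumour necrosis factor, was lower (-0.35 ± 0.10, adjusted p = 0.00823). Without LG/J female 1 and male 1, 2 of the 7 were lower and none higher, with a median of -0.27. They were Tnfrsf1a (edgeR adjusted p = 0.000294) and Il6st (adjusted p = 0.0228). Of 10 substrate genes of cartilage matrix, all kept, Acan was higher (0.94 ± 0.35, adjusted p = 0.0443) and Bgn, the proteoglycan biglycan, lower (-0.30 ± 0.11, adjusted p = 0.0347), with a median of 0.52. Without the 2 LG/J libraries 6 substrate genes were higher and none lower, against 17.1% and 15.1% of all genes.

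Some members varied together within groups. After the mean of each strain-by-sex group was removed, and without LG/J female 1 and male 1, Mmp2 and Mmp14 had Pearson's r of 0.764 over 30 libraries, and Mmp11 and Mmp14 0.687. Mmp3 and Mmp10, the neighbouring stromelysins, had 0.221, and Mmp3 and Mmp8 had -0.538, the lowest of 36 pairs. Mmp3 and Mmp13 had -0.274. These are descriptions over libraries that include close pairs.

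Among genes whose mean log2 CPM was 1 or more, those most like each member by the same measure were as follows. For Mmp3 they were Chil1, the chitinase-like cartilage glycoprotein, with r of 0.941, and Lcn2, which encodes lipocalin, with 0.912. For Mmp12 they were the leukocyte integrin Itgb2 with 0.892 and the phagosome transporter Slc11a1 with 0.890, and for Mmp8 the same genes in the other order, with 0.863 for Slc11a1 and 0.833 for Itgb2. Mmp14 was most like the actin-binding genes Cttn (0.894) and Lima1 (0.889). Mmp2 was most like Ppfibp1 (0.883) and Ece1 (0.882), and Mmp13 most like Dpysl3 (0.874) and Ehd3 (0.866).

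Mmp19 was most like another MMP gene, Mmp23 (0.896), and Galnt13 (0.888). Mmp10 went with Eftud2 (0.892) and Cast (0.882), and Mmp11 with Sbsn (0.875) and Rbms1 (0.870). The 2 libraries farthest from the member's median log2 CPM, before group means were removed, were then left out. In the 28 libraries r was between 0.765 (Mmp8 with Itgb2) and 0.931 (Mmp3 with Chil1). The genes had been picked for a high r over libraries that include these 28, so this is a description and no independent check.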

How the data were processed

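RNA-seq counts of 32 libraries of primary chondrocytes were used. A SMARTer kit had been used to build libraries, per the labels' protocols. STAR 2.0.4b was the aligner, GRCm38 the build and featureCounts 1.45 the counter, per the submitters' processing notes. The authors deposited whole-number read counts for 41388 genes per library, and CPM and RPKM columns that were not used here. A symbol was found for 40254 identifiers. Total counts were 15840330 to 25571598 per library.

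Strain and sex in the labels defined 4 groups of 8 libraries. Counts were filtered with filterByExpr (16136 genes kept), scaled by TMM and tested with edgeR 4.0.16 in R 4.3.3 (quasi-likelihood, robust, 1 mean per group, all libraries in 1 fit). P-values were adjusted over all genes kept, and genes were called at an adjusted p under 0.05. SE is the log2 fold change over the square root of F, and a 95% interval uses the normal approximation. Tables were made with Python 3.11.15. Alternatives used other scalings and filters, DESeq2 1.42.0, voom of limma 3.58.1, the library number as a block, and left-out or summed libraries. Fits were tested on simulated counts.

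All 10 members were named whatever their result, with the 2 genes most like each and called genes of the lists; values of uncalled list genes were added after they were seen. Likeness used log2 CPM with a prior count of 2. Members and lists were chosen with earlier results of these data known. Promoter sequences are from RefSeq (GRCm38.p6), and shared 50-base windows were counted in GENCODE transcripts of GRCm38.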

Additional observations from a re-analysis of the deposited data

Results flagged for a closer look

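In groups of 8 libraries, a library was picked out where its gap to the nearest other, over the range of the group, exceeded Dixon's 95% critical value for 8 values. Of 40 checks (10 members in 4 groups), 13 values were picked out, and 12 of the 13 were LG/J female 1 or LG/J male 1. Chance picks about 1 in 20 groups, but checks of members in 1 library are not independent and these libraries were set apart by their values, so the number is a description. For Mmp3 they were at 35070 CPM in LG/J female 1 (others of the group at most 530.2) and 27410 CPM in LG/J male 1 (at most 1038). For Mmp13 they were at 14180 CPM (at most 3330) and 13850 CPM (at most 3761), for Mmp10 at 100.4 CPM (at most 7.83) and 45.7 CPM (at most 2.60), and for Mmp9 at 4.38 CPM (at most 0.762) and 1.89 CPM (at most 0.483). LG/J female 1 alone was picked out for Mmp12 at 33.66 CPM (at most 5.38) and for Mmp19 at 14.86 CPM (at most 7.66). LG/J male 1 alone was picked out for Mmp2 at 174.0 CPM (at most 86.41) and for Mmp14 at 24.74 CPM (at most 15.72). The remaining one was Mmp8 in LG/J male 6, at 44.59 CPM, where the other LG/J males reached 6.27 CPM.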

How the results depend on the processing

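The number of members called between the strains was 4 with all libraries. It was 1 with close pairs summed and 2 with DESeq2, with voom, with library size only, with no filter, with the library number as a replicate block, without the 6 libraries that held transcripts of the other sex, without both LG/J libraries numbered 1, and, in fits added after seeing the data, without these and with close pairs summed or without the libraries of both sexes. It was 2 to 5 in fits without 1 library. All genes called were 4826, 3195 with close pairs summed and 4493 to 5151 without 1 library. In females the 1 call became 0 with close pairs summed and without the libraries of both sexes, and 2 with voom. In males it became 0 with close pairs summed, 3 with voom (Mmp11, Mmp12 and Mmp14), 1 to 2 without 1 library, and 2 with DESeq2, with library size only, with the replicate block and without both LG/J libraries numbered 1, also where LG/J male 6 or the libraries of both sexes were left out with them. Between sexes over both strains it was 0 to 1 without 1 library.

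Signs turned as follows. Mmp3 was at -1.16 without both LG/J libraries numbered 1, -1.05 also without LG/J male 6, -1.34 also without the libraries of both sexes, -1.69 also with close pairs summed, -1.08 with DESeq2, -1.30 with voom and -0.84 with the replicate block. Mmp10 was at -0.56, -0.51 (LG/J male 6 out) and -0.20 (close pairs summed) without both LG/J libraries numbered 1, -0.23 with DESeq2, -0.051 with voom and -0.16 with the replicate block. Mmp13 was at -0.56, -0.60, -0.28 and -0.48 in the 4 fits listed first for Mmp3, -0.57 with voom and -0.39 with the replicate block. Mmp2 was at -0.20 without both libraries numbered 1, -0.20 also without LG/J male 6, -0.16 also with close pairs summed, -0.057 with the replicate block, -0.10 with voom, -0.0052 with DESeq2's size factors, -0.0051 with DESeq2, -0.0125 with library size only and -0.012 with no filter. Mmp19 was at -0.12, -0.13 and -0.27 without both libraries numbered 1, alone, with LG/J male 6 out and with close pairs summed. Without 1 library, Mmp2 ran from -0.12 to 0.065 and Mmp13 from -0.23 to 0.28. DESeq2 replaced the Mmp3 and Mmp10 counts of both LG/J libraries numbered 1, and voom gave these libraries the lowest weights (0.256 and 0.273). For Mmp2, DESeq2 replaced 0 counts. The cause of the sign changes was not tested. Mmp8 without both libraries numbered 1 and LG/J male 6 was at -1.11 (adjusted p = 0.0393).

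The library numbers were not taken to pair the samples, since not every same-numbered pair had a correlation over 0.1 in deviations from the group means. Between strains it was -0.447 to 0.559, with 10 of 16 over 0.1. Between sexes it was -0.024 to 0.844 in LG/J (7 of 8 over 0.1) and -0.201 to 0.298 in SM/J (4 of 8). With the replicate block, Mmp12 and Mmp14 kept their calls. Low counts limit Mmp9, with at most 71 reads.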

Other observations

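Of 13 MMP genes outside the 10, 4 were above the range of the other LG/J libraries in both numbered 1 (Mmp1b, Mmp20, Mmp23 and Mmp25), and Mmp16 was below it. Mmp25, a membrane-anchored MMP known from leukocytes, was at 3.51 and 1.89 CPM in LG/J female 1 and LG/J male 1, against at most 0.431 CPM in the other LG/J libraries and at most 0.450 CPM in SM/J. Mmp16, a membrane-bound MMP, was at 10.85 and 11.93 CPM in them, below the 13.36 to 31.45 CPM of the other LG/J libraries and the 16.14 to 29.25 CPM of SM/J. Mmp23 was at 18.62 and 29.41 CPM against at most 17.25 CPM, and at 6.34 to 31.63 CPM in SM/J. Mmp1b and Mmp20 were at 0.493 CPM or less in both. These genes were named after their values were seen, and no test was made. The share of all genes outside that range in both libraries was not counted.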
